A study of Homo sapiens with 18 samples.

Results

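The genes described here are those of the mitochondrial genome, taken from the gene count matrix as every gene whose symbol starts with MT-. There were 37 of them among the 62754 genes of the matrix, 13 protein-coding genes, 2 ribosomal RNA (rRNA) genes and 22 transfer RNA (tRNA) genes. The 3 classes were kept apart in counts of calls and in medians. Of the 37, 33 passed the filter on low counts and were tested (13 protein-coding, 2 rRNA and 18 tRNA genes). The 4 tRNA genes MT-TQ, MT-TM, MT-TD and MT-TK did not pass and are given by their counts.

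EA.hy926 is a human umbilical vein endothelial cell line made by fusion with the lung epithelial line A549. Cells were treated with the transfection reagent alone (Mock), with a non-targeting siRNA at 10 nM (siNT) or with a pool of siRNAs against ELMO1 at 10 nM (siELMO1), a transient knockdown, and were serum-starved. Poly(I:C), a double-stranded RNA that activates TLR3, was added at 1 μg/ml 48 h after transfection, and RNA was taken just before it (0 h) or 24 h into the stimulation (24 h). The series holds no condition at 24 h without poly(I:C). A response to poly(I:C), 24 h against 0 h, therefore also holds 24 h more of culture after transfection, and these cannot be told apart. The 6 conditions had 3 libraries each, 18 in all, which the study describes as biological replicates. The siNT cells carry a transfected RNA duplex that the Mock cells lack, so that siNT against Mock compares a control with a duplex against one given the reagent alone. The libraries were made with a stranded kit that selects polyadenylated RNA.

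The mitochondrial genome is a circle that is transcribed from both strands into long RNAs, each holding many genes. The tRNA genes lie between most of the others, and cutting out the tRNAs frees the rRNAs and the messenger RNAs, which mostly receive a short poly(A) tail. The messenger RNAs encode subunits of the respiratory chain complexes I, III and IV and of ATP synthase, while all proteins that transcribe, process and degrade mitochondrial RNA are made from nuclear genes. Mature mitochondrial tRNAs end in CCA and carry no poly(A) tail, so that a library made from polyadenylated RNA can also hold tRNA sequence within RNAs that have not been cut.

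On the mitochondrial chromosome of GRCh38, 28 of the genes lie on the plus strand and 9, MT-ND6 and 8 tRNA genes, on the minus strand. The sequences below are those of the tRNA genes on which the tRNA results turn, 5′ to 3′ on the strand of the gene, from the GRCh38 reference. The first 3, on the plus strand, flank the rRNA genes: MT-TF (chrM:577-647, phenylalanine) precedes MT-RNR1, MT-TV (chrM:1602-1670, valine) lies between MT-RNR1 and MT-RNR2, and MT-TL1 (chrM:3230-3304, leucine) lies between MT-RNR2 and MT-ND1. They are shown with 30 bases on either side, capitals marking the tRNA gene.
MT-TF: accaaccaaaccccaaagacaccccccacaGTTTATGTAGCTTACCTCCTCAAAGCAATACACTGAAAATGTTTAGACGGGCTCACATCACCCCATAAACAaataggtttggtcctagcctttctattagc
MT-TV: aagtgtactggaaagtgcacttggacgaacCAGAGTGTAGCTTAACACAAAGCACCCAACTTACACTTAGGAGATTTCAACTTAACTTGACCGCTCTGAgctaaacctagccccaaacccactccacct
MT-TL1: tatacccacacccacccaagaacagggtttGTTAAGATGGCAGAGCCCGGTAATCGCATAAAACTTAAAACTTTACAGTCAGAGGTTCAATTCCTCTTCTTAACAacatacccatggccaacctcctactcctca
The next 3 are minus-strand tRNA genes, shown without flanks and wholly in capitals: MT-TC (chrM:5761-5826, cysteine), MT-TP (chrM:15956-16023, proline) and MT-TS1 (chrM:7446-7514, serine).
MT-TC: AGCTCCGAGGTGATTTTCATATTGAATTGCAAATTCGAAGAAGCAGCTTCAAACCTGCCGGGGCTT
MT-TP: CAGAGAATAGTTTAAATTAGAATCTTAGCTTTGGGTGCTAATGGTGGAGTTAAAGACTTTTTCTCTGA
MT-TS1: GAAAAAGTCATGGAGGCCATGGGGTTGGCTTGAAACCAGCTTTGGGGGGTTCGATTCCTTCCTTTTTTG

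All tRNA genes were 59 to 75 bases long, shorter than a sequenced read, and a gene count here is coverage times length divided by a read length, so a tRNA count is coverage of those bases by any RNA that spans them. Some bases belong to 2 genes. MT-ATP8 and MT-ATP6 share 46 bases and MT-ND4L and MT-ND4 share 7, shown here in capitals (plus strand, chrM:8497-8602 and chrM:10730-10796).
MT-ATP8/MT-ATP6: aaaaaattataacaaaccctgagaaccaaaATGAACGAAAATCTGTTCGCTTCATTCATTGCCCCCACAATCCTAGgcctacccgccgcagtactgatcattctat
MT-ND4L/MT-ND4: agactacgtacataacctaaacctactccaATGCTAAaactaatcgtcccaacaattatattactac
Reads over such bases cannot be told apart, and the counting was not stated to use strand, so that a gene and RNA from the opposite strand cannot be told apart either.

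Each library held 40.4 to 73.9 M estimated counts. ELMO1, the targeted gene, had 10 to 22 counts in the 6 siELMO1 libraries and 80 to 237 in the 12 others (siELMO1 against siNT, log2 fold change -3.11 ± 0.28, adjusted p = 2.74e-08 at 0 h and -3.64 ± 0.29, adjusted p = 1.43e-08 at 24 h), where ± gives the SE of a log2 fold change throughout. All 14 endothelial markers had a mean of at least 1 CPM, CPM being counts per 1 M counts of the library. Of the 8 epithelial markers only KRT8 and KRT18 did, and none of the 3 fibroblast and 3 leukocyte markers did. The summed endothelial markers ranged from 3681 to 3889.8 CPM in siELMO1 at 0 h and from 2696 to 2893 CPM in the controls at 0 h and the summed epithelial markers from 978 to 1088 CPM against 766 to 818 CPM. At 24 h the endothelial sums were 1903 to 2395 CPM in Mock, 2571 to 2827 in siNT and 3359 to 3998 in siELMO1, and the epithelial sums 484 to 495, 533 to 546 and 534 to 628 CPM. The part of these shifts in the results below was not tested. Nuclear RNAs without a poly(A) tail, a list of 15, summed to 28.1 to 212 CPM per library, and also moved between conditions, as is given beside the results. The 8 that passed the filter were RNA5-8SN1, RNA5-8SN2, RNA5-8SN3, RNA5-8SN5, RN7SL1, RN7SL2, RN7SK and SNORD3A. The RNA5-8SN genes had near-equal levels in each library and largely repeat a single signal. Counts and medians over the 8 lean on them and do not describe such RNAs in general. In each condition the largest sum came mostly from RN7SL1 and RN7SL2, as in Mock 24 h replicate 1 (63.5 and 96.2 of 212 CPM). RN7SK ran against the sum in Mock at 24 h (15.0, 27.0 and 25.5 CPM) and varied little in siELMO1 at 24 h (9.50, 9.31 and 9.81 CPM). The sums therefore do not describe such RNAs in general either. The siELMO1 0 h library of replicate 1 stands apart from replicates 2 and 3 in the mitochondrial genes and is shown on its own below.

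Per kilobase of gene length, on the scale of TMM-scaled CPM per kb, MT-RNR2, the 16S rRNA of the large mitochondrial ribosomal subunit, had the highest mean over the 18 libraries, 3619.5 CPM per kb. It was followed by MT-CO2 (2842), MT-ATP8 (2528), MT-CO1 (2074), MT-ATP6 (1839.7), MT-CO3 (1418), MT-ND4 (1394), MT-ND2 (1265), MT-ND4L (1225) and MT-ND3 (1029). The order went on with MT-ND1 (807), MT-CYB (678), MT-RNR1 (599), MT-ND6 (473) and MT-ND5 (462). MT-RNR1, the 12S rRNA of the small subunit, thus had a lower mean than 11 of the 13 messenger RNAs, although both rRNAs are needed in equal number in the ribosome. The tRNA genes followed, from MT-TC (318 CPM per kb), MT-TN (276) and MT-TY (209), which are neighbours on the minus strand, to MT-TD (5.49). In Mock at 0 h, MT-ND1 (396 ± 10.2 CPM per kb, SD, n = 3) lay below MT-CYB (584 ± 21.5), and in siELMO1 at 24 h above it (931 ± 113 against 325 ± 67.0). Neighbours in the order such as MT-ND5 and MT-ND6 did not differ beyond their spread (siNT at 0 h, 458 ± 38.7 and 485 ± 62.7 CPM per kb).

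Mitochondrial genes made up 1.31 to 4.02% of all counts of a library. For the protein-coding genes, the share was 1.03, 1.10 and 0.992% in Mock, 1.30, 1.65 and 1.47% in siNT and 1.27, 2.97 and 2.99% in siELMO1 at 0 h. At 24 h it was 1.11, 1.20 and 1.14% in Mock, 1.49, 1.64 and 1.82% in siNT and 0.983, 1.18 and 0.885% in siELMO1. Replicates 2 and 3 of siELMO1 at 0 h thus held the highest shares of the series, while replicate 1 lay between the Mock and the siNT libraries of 0 h. The rRNA genes took 0.325, 0.333 and 0.312% in Mock, 0.393, 0.466 and 0.397% in siNT and 0.575, 1.03 and 0.951% in siELMO1 at 0 h. At 24 h the values were 0.628, 0.585 and 0.631%, 0.554, 0.552 and 0.588% and 0.872, 0.946 and 0.913% in the same order. Unlike the protein-coding share, the rRNA share of siELMO1 stayed above every Mock and siNT library at 24 h. All tRNA genes together held 0.00444 to 0.0209% of the counts. With 3 libraries against 3, an exact permutation test of shares could not give a two-sided p below 0.10, so the shares carry no test. In bulk RNA, a larger share can come from more mitochondrial RNA per cell or from less of all other RNA, and these cannot be told apart.

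**Figure D1:**
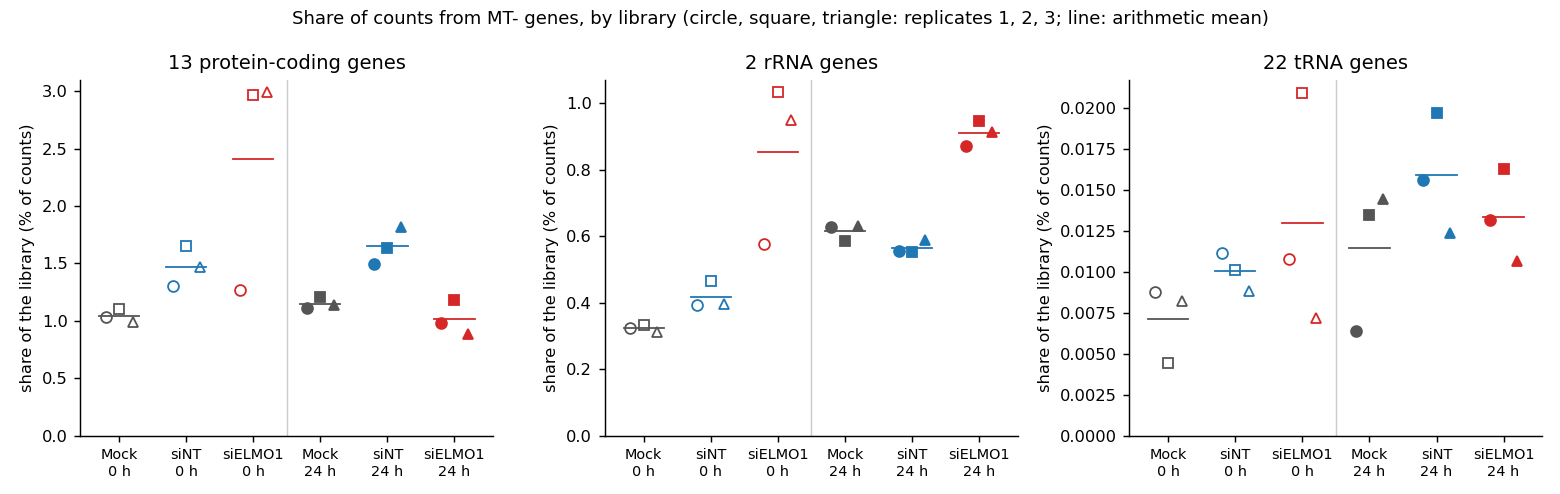
Share of all counts per library (percent, linear axes) held by the protein-coding, rRNA and tRNA genes of the mitochondrial genome in the 6 conditions, with circle, square and triangle for replicates 1, 2 and 3 and a line at the mean of the 3. The protein-coding share of siELMO1 at 0 h spans 1.27 to 2.99%, with replicate 1 apart from the other libraries of its condition.

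The first comparison asks how the loss of ELMO1 changed mitochondrial RNA before poly(I:C). At 0 h, 9 of the 13 protein-coding genes rose in siELMO1 against siNT and none fell, with a median log2 fold change of 0.73 (0.40 to 1.28). Over all 15167 genes tested the median was 0.00, and 31.3% of them were called higher and 31.3% lower at an adjusted p under 0.05 in edgeR's quasi-likelihood test. Against Mock all 13 rose, with a median of 1.37 (0.90 to 1.74). There 27.9% of all genes were called higher and 22.4% lower. The count against siNT was 13 without replicate 1 of siELMO1 (median 1.09). It was 5 without replicate 2 or without replicate 3 (medians 0.54 and 0.53), and 5 in a fit of these 6 libraries alone. Against Mock, it was 13 in each of these 3 cases, with medians of 1.67, 1.14 and 1.16. Both comparisons use the same siELMO1 libraries. Of the nuclear RNAs without poly(A), 6 of the 8 tested were lower against siNT (median -1.67) and 0 against Mock (median -0.50), and their part in the mitochondrial values was not tested. When libraries were scaled by their totals alone, 3274 of 7463 calls against Mock over all genes were higher, in place of 4225 of 7618.

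Complex I, which passes electrons from NADH to ubiquinone, has 7 of its subunits encoded by the mitochondrial genome, and 6 of the 7 rose against siNT. MT-ND1, a subunit of the membrane arm next to the ubiquinone site, stood at 382, 387 and 368 CPM in Mock, 454, 597 and 513 in siNT and 549.8, 1597 and 1640.4 in siELMO1. Replicates 2 and 3 of siELMO1 were above every control library, and replicate 1 lay within the siNT range. MT-ND1 had the largest change of the 13 against siNT, a log2 fold change of 1.28 ± 0.26, adjusted p = 0.000317, and 1.74 ± 0.26, adjusted p = 2.42e-05 against Mock. MT-ND2, a proton-pumping subunit, stood at 815, 858 and 870.3 CPM in Mock, 982, 1167 and 1034 in siNT and 1153, 2965 and 2933 in siELMO1, a log2 fold change of 1.15 ± 0.23, adjusted p = 0.000282 against siNT. MT-ND3, a small core subunit, stood at 289, 279 and 296 CPM in Mock, 352, 406 and 337 in siNT and 362, 862 and 774 in siELMO1 (0.87 ± 0.21, adjusted p = 0.00170). In both genes replicate 1 of siELMO1 was below the highest siNT library and replicates 2 and 3 were above every control library. MT-ND4L, a small proton-pumping subunit, had 222, 249 and 203 CPM in Mock, 329.7, 393 and 379.7 in siNT and 259, 804 and 767 in siELMO1 (0.73 ± 0.27, adjusted p = 0.0245). MT-ND4, a large proton-pumping subunit from the same messenger RNA, had 1201, 1278 and 1089 CPM in Mock, 1781, 2261 and 2039.8 in siNT and 1337, 3997 and 3909.8 in siELMO1, and did not pass the test against siNT (0.60 ± 0.26, adjusted p = 0.0504) but did against Mock (1.37 ± 0.26, adjusted p = 0.000281). In MT-ND4, replicate 1 of siELMO1 was below all siNT libraries. MT-ND5, the outermost proton-pumping subunit, had 548, 591 and 529.9 CPM in Mock, 765, 904 and 823 in siNT and 663, 1911 and 1751 in siELMO1 (0.79 ± 0.24, adjusted p = 0.00757). MT-ND6, the only messenger RNA of the minus strand, had 166, 192 and 159.6 CPM in Mock, 226, 291 and 247 in siNT and 199, 528 and 558 in siELMO1 (0.75 ± 0.24, adjusted p = 0.0109). Levels of MT-ND5 and MT-ND6, which lie on opposite strands next to each other, had the same order of conditions.

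Of the other complexes, MT-CYB, cytochrome b and the only complex III subunit of the mitochondrial genome, stood at 689.7, 669 and 641 CPM in Mock, 789, 999 and 839 in siNT and 639, 1471 and 1642 in siELMO1. Replicate 1 was lower than all 6 control libraries and replicates 2 and 3 were higher than all of them. MT-CYB did not pass the test against siNT (0.51 ± 0.23, adjusted p = 0.0598) but rose against Mock (0.91 ± 0.23, adjusted p = 0.00315). Complex IV, cytochrome c oxidase, has its 3 core subunits encoded here. MT-CO1, which holds the site of oxygen reduction, stood at 1838, 2286 and 1641 CPM in Mock, 2527, 3429.5 and 3168 in siNT and 2768, 5983 and 6257 in siELMO1 (0.72 ± 0.21, adjusted p = 0.00698 against siNT). MT-CO2, which takes electrons from cytochrome c, stood at 1200.3, 1179 and 1205 CPM in Mock, 1613, 1960.5 and 1650.5 in siNT and 1866, 4060.1 and 3859 in siELMO1 (0.91 ± 0.19, adjusted p = 0.000519). MT-CO3, the third core subunit, stood at 953, 1016 and 896 CPM in Mock, 1213, 1553 and 1406 in siNT and 999, 2152 and 2344 in siELMO1, and did not pass against siNT (0.40 ± 0.21, adjusted p = 0.105). In MT-CO1 and MT-CO2 replicate 1 lay within the siNT range and in MT-CO3 below it. Against Mock the changes were 1.38 ± 0.22, adjusted p = 3.72e-05 for MT-CO1, 1.45 ± 0.19, adjusted p = 6.95e-06 for MT-CO2 and 0.94 ± 0.21, adjusted p = 0.00113 for MT-CO3.

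ATP synthase has 2 subunits of its membrane part encoded in overlapping genes. MT-ATP8 stood at 460.2, 446 and 467 CPM in Mock, 562, 721 and 625 in siNT and 481, 973 and 1112 in siELMO1, and did not pass against siNT (0.43 ± 0.19, adjusted p = 0.0619). MT-ATP6, which forms the proton channel with the rotor ring, stood at 1006, 962 and 1003 CPM in Mock, 1242, 1568 and 1349 in siNT and 1008, 2804 and 2945 in siELMO1 (0.70 ± 0.25, adjusted p = 0.0209). In both, replicate 1 was below every siNT library. Against Mock, the log2 fold changes were 0.90 ± 0.19, adjusted p = 0.000815 for MT-ATP8 and 1.19 ± 0.25, adjusted p = 0.000729 for MT-ATP6, and the 46 bases shown above are counted in both genes. By complex, the median log2 fold changes against Mock were 1.37 for complex I, 0.91 for complex III, 1.38 for complex IV and 1.04 for ATP synthase.

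Replicate 1 of siELMO1 at 0 h was compared with replicates 2 and 3 gene by gene. All 13 protein-coding genes were lower in replicate 1, at a median of 0.391 of the mean of replicates 2 and 3 (0.329 for MT-ND4L to 0.471 for MT-CO2), while replicates 2 and 3 differed little from each other (median ratio 0.974, 0.875 to 1.11). For 12 of the 13 the level of replicate 1 was within the range of the 6 control libraries at 0 h, the exception being MT-CYB, which was below it. In replicates 2 and 3, all 13 were above every control library at 0 h. The same was not counted over all tested genes, so these counts do not show whether replicate 1 differed in mitochondrial genes alone. MT-RNR2 was at 0.543 and MT-RNR1 at 0.837 of the mean of the other replicates. Of the 22 tRNA genes 20 were lower in replicate 1, with a median ratio of 0.523, MT-TA (1.60) and MT-TN (1.45) being higher. Replicate 1 had the most counts of the 3 libraries, 71.1 M against 40.4 and 51.0 M, and the largest sum of nuclear RNAs without poly(A), 109 CPM against 28.1 and 46.5 CPM. Of the 109 CPM, RN7SL1 gave 37.7 and RN7SL2 54.7, while RN7SK was at 5.61 CPM against 9.74 and 4.27 CPM. ELMO1 was as low in replicate 1 as in the others (0.299 CPM against 0.301 and 0.419 CPM). The part of depth or of RNA without poly(A) in the lower mitochondrial level was not tested.

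The proportions of mitochondrial genes to each other did not all set replicate 1 with the controls. Of 11 ratios within a library, 6 had all 3 siELMO1 libraries of 0 h outside the range of the 6 controls on the same side. Per base, MT-RNR1 relative to MT-RNR2 was 0.0827, 0.0535 and 0.0538 in siELMO1 at 0 h, 0.204, 0.154 and 0.172 in Mock and 0.178, 0.173 and 0.167 in siNT. MT-ND1 relative to MT-CYB was 1.03, 1.30 and 1.19 in siELMO1, 0.660, 0.691 and 0.686 in Mock and 0.686, 0.714 and 0.730 in siNT. Both are among the 6. In 2 other ratios, replicate 1 lay on the other side of the controls from replicates 2 and 3. MT-RNR2 relative to MT-ND1 was 5.92 in replicate 1, 3.90 and 3.51 in replicates 2 and 3 and 4.23 to 4.73 in the controls. MT-ATP8 relative to MT-ATP6 was 1.57, 1.14 and 1.24, with 1.49 to 1.53 in the controls. In the last 3, which include MT-ND4L relative to MT-ND4, replicate 1 was within the control range. These ratios are within 1 library and do not depend on its depth or scaling, and they were chosen after their values were seen and carry no test.

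**Figure D2:**
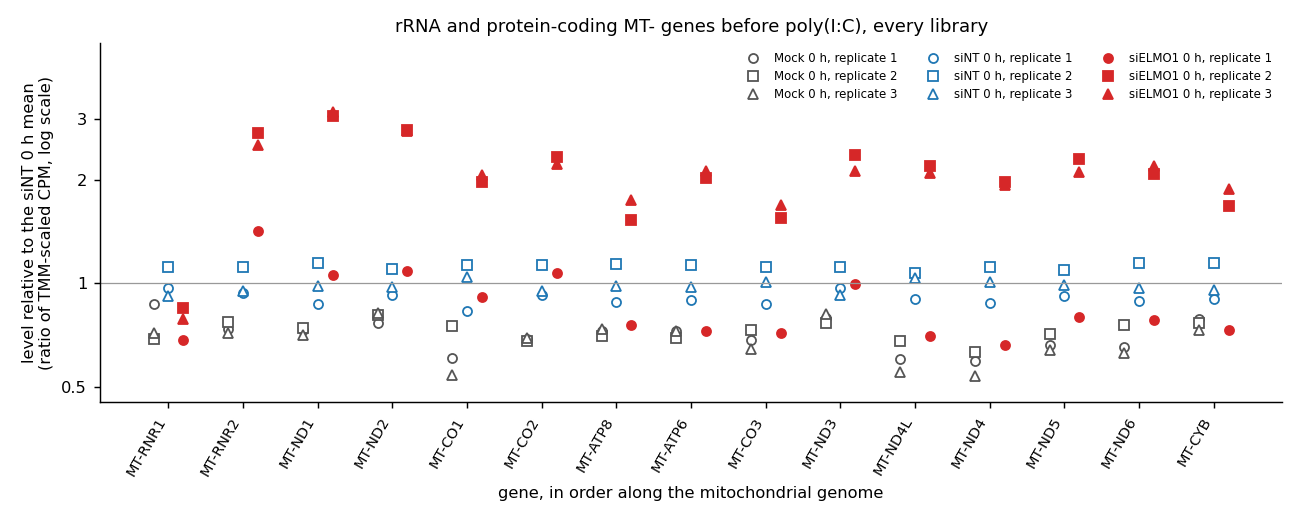
Level at 0 h of the 13 protein-coding and 2 rRNA genes relative to the siNT mean of the same gene (log axis), in genome order, with circle, square and triangle for replicates 1, 2 and 3 of Mock, siNT and siELMO1. Replicate 1 of siELMO1 falls among the controls for the messenger RNAs, at 0.391 of the mean of replicates 2 and 3 in the median, while MT-RNR1 of all 3 siELMO1 libraries lies below the siNT libraries.

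The rRNA genes parted at 0 h. MT-RNR1 stood at 341, 271 and 281 CPM in Mock, 381, 438 and 362 in siNT and 268, 332 and 309 in siELMO1, and MT-RNR2 at 2738, 2876 and 2665 CPM in Mock, 3496, 4145 and 3542 in siNT and 5303, 10162 and 9379 in siELMO1. All siELMO1 libraries were below all siNT libraries in MT-RNR1 and above all control libraries in MT-RNR2. MT-RNR1 fell against siNT (log2 fold change -0.38 ± 0.11, adjusted p = 0.00817) and was not called against Mock (0.03 ± 0.11, adjusted p = 0.871). MT-RNR2 rose against siNT (1.15 ± 0.15, adjusted p = 2.75e-06) and against Mock (1.59 ± 0.15, adjusted p = 1.08e-07). The call of MT-RNR1 against siNT was lost without siNT replicate 2 (-0.29), and it held without replicate 1 of siELMO1 (-0.30). MT-TV, the tRNA gene that lies between the rRNA genes, rose with MT-RNR2 (1.68 ± 0.26, adjusted p = 2.50e-05 against siNT), as did MT-TL1 on the far side of MT-RNR2 (1.21 ± 0.26, adjusted p = 0.000527).

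The comparison of the controls shows what transfection of a non-targeting siRNA changed. In siNT against Mock at 0 h, 6 of 13 protein-coding genes rose and none fell (median log2 fold change 0.54, 0.32 to 0.77), where 27.6% of all genes were called higher and 24.0% lower. The 6 were MT-CO1, MT-CO2, MT-ATP8, MT-CO3, MT-ND4L and MT-ND4, the largest change being that of MT-ND4 (0.77 ± 0.26, adjusted p = 0.0190). The count was 0 without Mock replicate 1, Mock replicate 3 or siNT replicate 2, 2 without Mock replicate 2, 3 without siNT replicate 3 and 13 in a fit of these 6 libraries alone, and the direction was the same for all 13 genes throughout. Here 4 of the 8 nuclear RNAs without poly(A) were higher (median 1.17). Both rRNA genes rose, MT-RNR1 by 0.40 ± 0.11, adjusted p = 0.00673 and MT-RNR2 by 0.43 ± 0.15, adjusted p = 0.0207 on the log2 scale. MT-RNR1 lost the call without Mock replicate 2 (0.30) or 3 (0.33), and MT-RNR2 without Mock replicate 1 (0.39), Mock replicate 3 (0.37) or siNT replicate 2 (0.35).

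After 24 h of poly(I:C) the order of siELMO1 and siNT was the reverse. The study reported massive death of siNT cells by this time, and less in Mock and siELMO1 cells. The part of cell death in the 24 h values, and in the responses that use them, was not tested. Against siNT, 9 of 13 protein-coding genes were lower in siELMO1 and none was higher (median log2 fold change -0.82, -1.27 to 0.06), beside 26.5% of all genes called lower and 26.0% higher. The 9 were MT-ATP8, MT-ATP6 and the genes that follow them on the genome as far as MT-CYB, while MT-ND1, MT-ND2, MT-CO1 and MT-CO2, which precede them, were not called. MT-CYB stood at 546, 651 and 554 CPM in Mock, 791, 926 and 975 in siNT and 360.3, 453 and 301 in siELMO1, a log2 fold change of -1.27 ± 0.23, adjusted p = 0.000189 against siNT. MT-ND4L stood at 254, 292 and 258 CPM in Mock, 442, 492 and 556 in siNT and 210.2, 262 and 174 in siELMO1 (-1.20 ± 0.27, adjusted p = 0.00119), and MT-ND4 at 1371, 1538 and 1390.1 CPM in Mock, 2408, 2619.8 and 2957 in siNT and 1122, 1336 and 935 in siELMO1 (-1.23 ± 0.26, adjusted p = 0.000712). For these 3 genes, all siELMO1 libraries were below all siNT libraries. MT-ND3 stood at 248, 306 and 249.5 CPM in Mock, 353, 369 and 329.5 in siNT and 192, 240.1 and 162 in siELMO1 (-0.82 ± 0.21, adjusted p = 0.00344), MT-ND5 at 579.9, 644 and 601 CPM in Mock, 899, 1017 and 1039 in siNT and 590.1, 699.8 and 524 in siELMO1 (-0.70 ± 0.24, adjusted p = 0.0193) and MT-ND6 at 175, 167 and 169 CPM in Mock, 255, 291 and 289.8 in siNT and 171, 212 and 172 in siELMO1 (-0.59 ± 0.24, adjusted p = 0.0465). MT-ATP8 stood at 420.3, 427 and 405 CPM in Mock, 468, 529.7 and 521 in siNT and 267, 301 and 235 in siELMO1 (-0.92 ± 0.19, adjusted p = 0.000699), MT-ATP6 at 988, 1084 and 959 CPM in Mock, 1139, 1321 and 1345 in siNT and 615, 710.2 and 505 in siELMO1 (-1.06 ± 0.25, adjusted p = 0.00182) and MT-CO3 at 794, 915 and 819 CPM in Mock, 973, 1097 and 1217 in siNT and 544, 645 and 471 in siELMO1 (-0.99 ± 0.21, adjusted p = 0.000747). In these 6 genes, too, all siELMO1 libraries were below all siNT libraries. MT-ND1 stood at 711, 731 and 739 CPM in Mock, 730.3, 846 and 978 in siNT and 841, 1014 and 814 in siELMO1 (0.06 ± 0.25, adjusted p = 0.855), with the groups overlapping.

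The other genes without a call against siNT at 24 h were MT-ND2, at 1056, 1218 and 1082 CPM in Mock, 1386, 1483 and 1574 in siNT and 1057, 1233 and 862 in siELMO1 (-0.49 ± 0.23, adjusted p = 0.0758), MT-CO1, at 2564, 2614 and 2720.4 CPM in Mock, 3458, 3548 and 4210.3 in siNT and 2631, 3287 and 2630.2 in siELMO1 (-0.39 ± 0.21, adjusted p = 0.132), and MT-CO2, at 1649.7, 1868 and 1700.3 CPM in Mock, 1821, 2057 and 2272 in siNT and 1675, 1917 and 1433 in siELMO1 (-0.29 ± 0.19, adjusted p = 0.215). A missing call does not show that these levels were equal. Of the 8 nuclear RNAs without poly(A), 6 were lower in siELMO1 against siNT (median -2.33), 5 were lower against Mock (median -1.63) and 1 was higher in siNT against Mock (median 0.31), which was not tested as a part of these results. Against Mock at 24 h, siELMO1 was lower in 4 of 13 (MT-ATP8, MT-ATP6, MT-CO3 and MT-CYB), with a median of -0.31 (-0.73 to 0.29). Of all genes, 22.0% were called lower and 21.6% higher. The 4 became 1 without Mock replicate 2 or siELMO1 replicate 1 and 0 without siELMO1 replicate 3. In siNT against Mock at 24 h, 5 of 13 were higher (MT-ND4L, MT-ND4, MT-ND5, MT-ND6 and MT-CYB) and none lower, with a median of 0.40 (0.23 to 0.89). Of all genes, 25.2% were called higher and 24.9% lower. The largest were MT-ND4L (0.89 ± 0.27, adjusted p = 0.0106) and MT-ND4 (0.89 ± 0.26, adjusted p = 0.00832). The count was 3 without Mock replicate 1, Mock replicate 3 or siNT replicate 3, 2 without siNT replicate 2 and 12 in a fit of these 6 libraries alone.

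Both rRNA genes were higher in siELMO1 than in the controls at 24 h. MT-RNR1 stood at 737, 664 and 876 CPM in Mock, 622, 624 and 655 in siNT and 943, 987 and 1195 in siELMO1, and MT-RNR2 at 5694, 5379 and 5601 CPM in Mock, 4991, 4979 and 5259 in siNT and 8165, 8880.4 and 8315 in siELMO1. All siELMO1 libraries were above all controls in both genes. The log2 fold changes against siNT were 0.72 ± 0.11, adjusted p = 4.90e-05 for MT-RNR1 and 0.74 ± 0.15, adjusted p = 0.000478 for MT-RNR2, and those against Mock 0.46 ± 0.11, adjusted p = 0.00335 and 0.60 ± 0.15, adjusted p = 0.00296. Between siNT and Mock neither was called (-0.26 ± 0.11, adjusted p = 0.0670 and -0.13 ± 0.15, adjusted p = 0.491), while both were called lower in siNT in a fit of these 6 libraries alone, and MT-RNR1 also without Mock replicate 2 (-0.35).

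The next question is how each kind of cell changed from 0 h to 24 h of poly(I:C), the added time in culture included. In siELMO1, 12 of the 13 protein-coding genes fell from 0 h to 24 h and none rose, with a median log2 fold change of -1.45 (-1.88 to -0.50). Of all genes, 26.9% were called lower and 28.0% higher. In Mock, 2 rose and none fell (median 0.13, -0.19 to 0.94), where 30.7% of all genes were called higher and 29.6% lower. In siNT, 1 rose and none fell (median 0.24, -0.34 to 0.71), where 28.6% of all genes were called higher and 25.2% lower. The largest falls in siELMO1 were those of MT-ATP6 (-1.88 ± 0.26, adjusted p = 6.51e-06), MT-CYB (-1.75 ± 0.24, adjusted p = 5.78e-06) and MT-ND3 (-1.75 ± 0.22, adjusted p = 2.26e-06). MT-ND1 alone was not called (-0.50 ± 0.25, adjusted p = 0.102), and MT-CO1 (-0.81 ± 0.21, adjusted p = 0.00363) fell least of those called. The genes that rose in Mock were MT-ND1 (0.94 ± 0.26, adjusted p = 0.00414) and MT-CO2 (0.54 ± 0.19, adjusted p = 0.0214), and in siNT MT-ND1 (0.71 ± 0.25, adjusted p = 0.0261). Of the 8 nuclear RNAs without poly(A), 5 rose in Mock (median 1.64), 6 in siNT (median 0.97) and 0 in siELMO1 (median 0.54), and 4 responded lower in siELMO1 than in Mock and 0 than in siNT, their part in the responses being not tested.

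The fall in siELMO1 starts from 0 h libraries of which replicates 2 and 3 were higher than the controls. At 24 h no protein-coding gene was called higher in siELMO1 than in a control by the tests above. In a fit of the compared libraries alone, 1 was called higher than in Mock. For MT-ND1 all siELMO1 libraries at 24 h (814 to 1014 CPM) were above all Mock libraries (711 to 739 CPM). Without replicate 1 of siELMO1 at 0 h all 13 fell (median -1.81), and without replicate 2 or 3 the medians were -1.21 and -1.24. Of the controls' calls, the 2 in Mock became 1 without any 1 of the Mock 0 h libraries or Mock 24 h replicate 2, and 6 rose and 3 fell in a fit of these 6 libraries alone. The 1 in siNT became 0 without siNT 0 h replicate 1 or 3 or siNT 24 h replicate 2 or 3, and 5 rose and 2 fell in a fit of these 6 libraries alone. When libraries were scaled by their totals alone, without TMM factors, the median response of all genes in Mock moved from 0.01 to -0.11, 3555 of 9376 calls were higher in place of 4655 of 9144, and the median of the protein-coding genes was 0.0078, which is above that of all genes.

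Both rRNAs rose in the controls and parted in siELMO1. MT-RNR1 rose in Mock (1.35 ± 0.12, adjusted p = 1.60e-08), in siNT (0.69 ± 0.11, adjusted p = 6.68e-05) and in siELMO1 (1.78 ± 0.12, adjusted p = 6.29e-10). MT-RNR2 rose in Mock (1.01 ± 0.15, adjusted p = 1.42e-05) and in siNT (0.45 ± 0.15, adjusted p = 0.0171), and did not pass in siELMO1 (0.03 ± 0.15, adjusted p = 0.882). The call of MT-RNR2 in siNT was lost without siNT 0 h replicate 1 (0.40) or 3 (0.41). Without replicate 1 of siELMO1 at 0 h, MT-RNR2 was called lower in siELMO1 (-0.21).

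**Figure D3:**
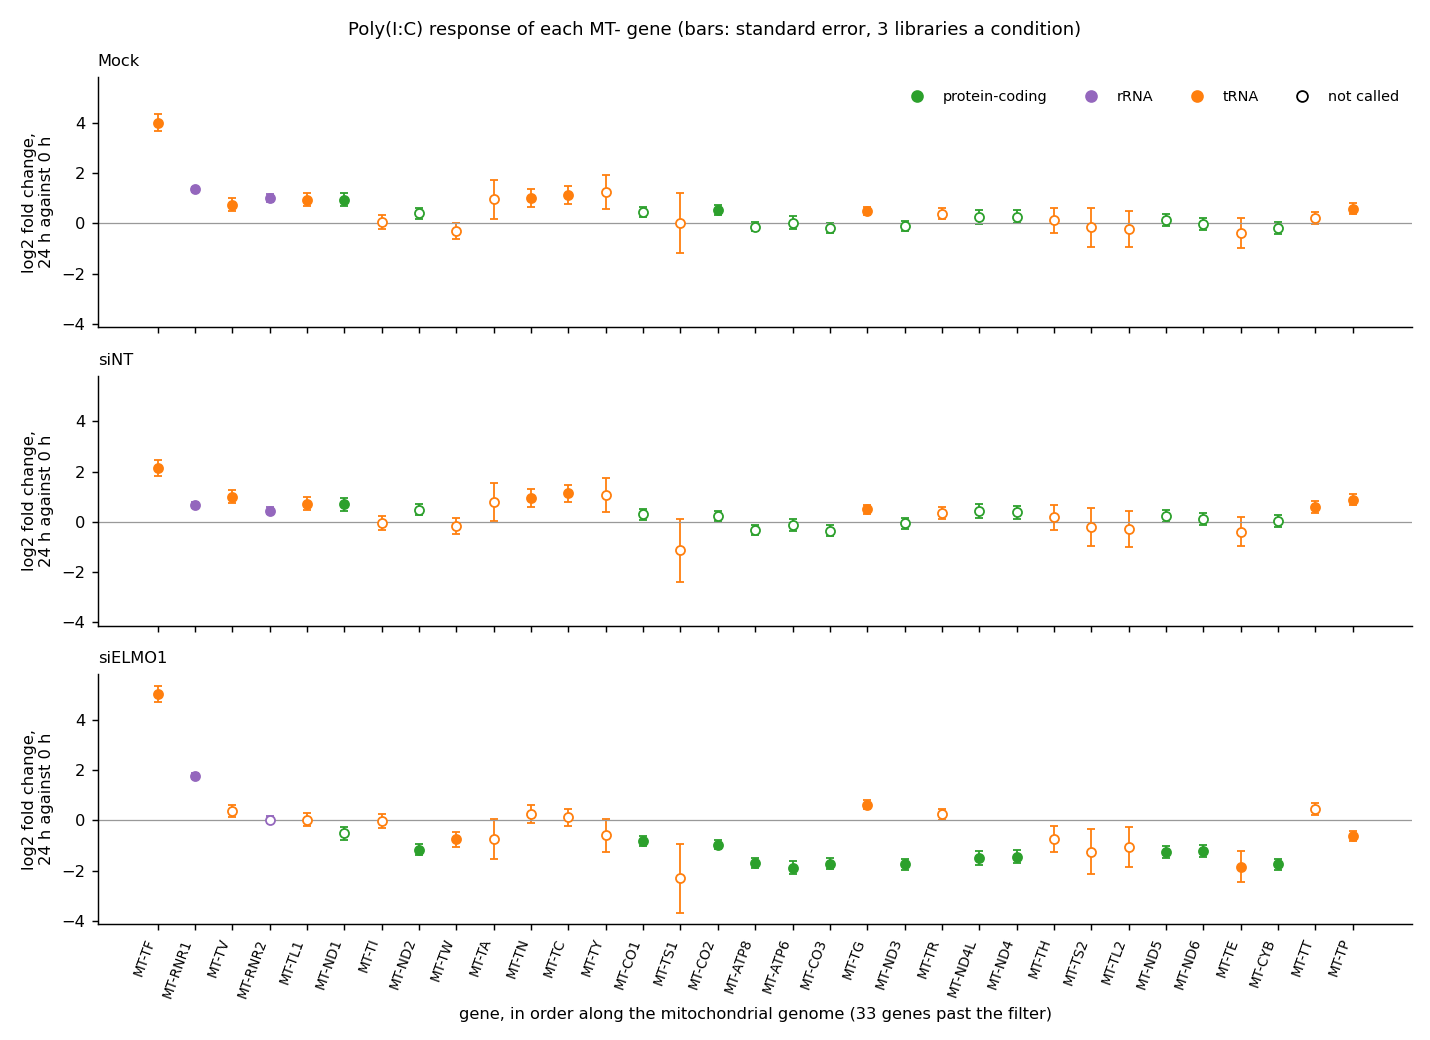
Poly(I:C) response (log2 fold change, 24 h against 0 h) of the 33 tested genes in genome order for Mock, siNT and siELMO1, each in its own panel, coloured by class, with bars for the SE and filled points for an adjusted p under 0.05. The siELMO1 panel has 12 filled protein-coding points below 0, from -1.88 for MT-ATP6 to -0.81 for MT-CO1, and MT-RNR1 at 1.78.

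The responses were compared with each other as an interaction in the same model. All 13 protein-coding genes responded lower in siELMO1 than in siNT (median difference -1.50, -1.93 to -1.11), where 17.8% of all genes were called lower and 16.7% higher. The same held against Mock (median -1.55, -1.91 to -1.19), where 14.6% were called lower and 13.8% higher. Between siNT and Mock none of the 13 was called (median 0.05, -0.31 to 0.23), where 16.0% were called lower and 15.0% higher. The differences from siNT were largest in size for MT-ND4L (-1.93 ± 0.38, adjusted p = 0.000702), MT-ND4 (-1.84 ± 0.37, adjusted p = 0.000797) and MT-CYB (-1.79 ± 0.33, adjusted p = 0.000361), and smallest for MT-CO1 (-1.11 ± 0.30, adjusted p = 0.00798). Those from Mock were largest for MT-ATP6 (-1.91 ± 0.35, adjusted p = 0.000607). All 13 remained called in both without replicate 1, 2 or 3 of siELMO1 at 0 h, with medians of -1.84, -1.25 and -1.33 against siNT. MT-RNR1 differed the other way against siNT (1.09 ± 0.16, adjusted p = 4.48e-05) and was not called against Mock (0.43 ± 0.16, adjusted p = 0.0547). It was called higher against Mock with library totals (0.49), upper-quartile factors (0.44), scaling by nuclear genes (0.46) or no filter (0.48), and without Mock 0 h replicate 2 (0.52) or 3 (0.50), siELMO1 0 h replicate 2 (0.50), Mock 24 h replicate 3 (0.55) or siELMO1 24 h replicate 1 (0.50). MT-RNR2 was lower against Mock (-0.98 ± 0.21, adjusted p = 0.00197) and not called against siNT (-0.42 ± 0.21, adjusted p = 0.139), where it was called lower without replicate 1 of siELMO1 at 0 h (-0.65).

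In siNT against Mock both rRNA responses were smaller, by -0.66 ± 0.16 for MT-RNR1 (adjusted p = 0.00436) and -0.56 ± 0.21 for MT-RNR2 (adjusted p = 0.0490), the latter lost when any 1 of the 12 libraries was left out (-0.61 to -0.48) and under 6 other settings. With library totals, 2551 of 4225 calls over all genes were higher in the response difference of siELMO1 and Mock in place of 2090 of 4299, and 3072 of 4741 in that of siNT and Mock in place of 2268 of 4696.

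The responses followed the order of the genes on the genome. Over the 14 rRNA and protein-coding genes of the plus strand, Spearman's rho between position and the log2 response was -0.77 in Mock, -0.53 in siNT and -0.75 in siELMO1, and over the 13 protein-coding genes alone -0.63, -0.30 and -0.52. The points are genes that share libraries and transcripts and are no independent replicates, so the values are a description. The first genes, MT-RNR1, MT-RNR2 and MT-ND1, were among the 4 highest of the 15 rRNA and protein-coding genes in each kind of cell. The ratio of MT-ND1 to MT-CYB per base went from 0.679 ± 0.0165 (SD, n = 3) to 1.50 ± 0.136 in Mock, from 0.710 ± 0.0222 to 1.13 ± 0.0585 in siNT and from 1.17 ± 0.136 to 2.90 ± 0.294 in siELMO1. In each kind of cell every 24 h library was above every 0 h library, and siELMO1 was above both controls of the same time. The ratio of summed rRNA to protein-coding counts went from 0.311 ± 0.00691 to 0.536 ± 0.0441 in Mock, from 0.285 ± 0.0157 to 0.344 ± 0.0243 in siNT and from 0.373 ± 0.0712 to 0.907 ± 0.116 in siELMO1. In siELMO1 at 24 h the rRNA counts were thus nearly as many as those of all messenger RNAs together.

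MT-ND4 and MT-ND4L, which are read from 1 messenger RNA, kept a like ratio per base, 0.875 ± 0.0246 in Mock, 0.843 ± 0.0315 in siNT and 0.914 ± 0.0181 in siELMO1 at 0 h and 0.867 ± 0.0106, 0.865 ± 0.0113 and 0.882 ± 0.0258 at 24 h. MT-ND6 relative to MT-ND5 per base was 1.07 ± 0.0463, 1.06 ± 0.0474 and 1.03 ± 0.0737 at 0 h and 0.970 ± 0.0756, 0.976 ± 0.0121 and 1.06 ± 0.0681 at 24 h, near 1 in every condition although the genes lie on opposite strands. Without a stated strand setting, the part of plus-strand RNA in the MT-ND6 count was not tested.

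**Figure D4:**
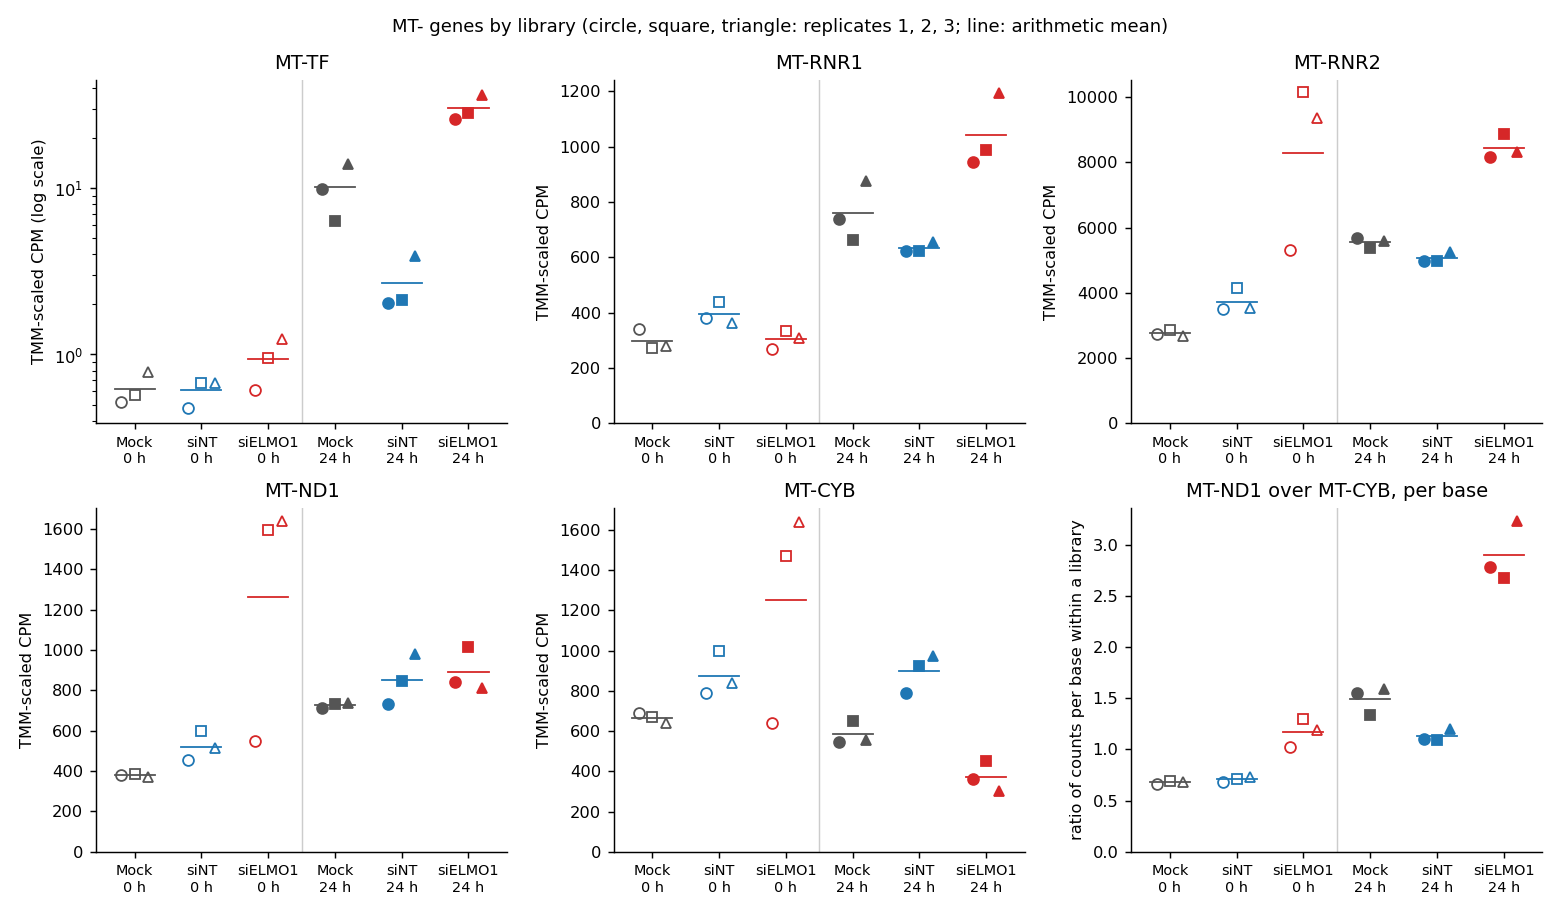
Levels of MT-TF (CPM, log axis), MT-RNR1, MT-RNR2, MT-ND1 and MT-CYB (CPM, linear axes) and the ratio of MT-ND1 to MT-CYB per base in every library of the 6 conditions, with circle, square and triangle for replicates 1, 2 and 3 and a line at the mean. MT-TF is highest in siELMO1 at 24 h, and the ratio of MT-ND1 to MT-CYB reaches 2.90 there against 0.679 in Mock at 0 h.

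Among the tRNA genes, MT-TF showed the largest response of all 37 genes. Its counts were 34, 42 and 61 in Mock, 32, 41 and 45 in siNT and 45, 38 and 62 in siELMO1 at 0 h. At 24 h they were 521, 384 and 819 in Mock, 106, 119 and 223 in siNT and 1722, 1808 and 1806 in siELMO1. No library at 24 h overlapped with those at 0 h, and at 24 h the 3 kinds of cells did not overlap with each other. On the log2 scale MT-TF rose by 4.01 ± 0.33, adjusted p = 8.12e-09 in Mock, 2.14 ± 0.33, adjusted p = 3.33e-05 in siNT and 5.04 ± 0.33, adjusted p = 6.92e-10 in siELMO1. At 24 h it was higher in siELMO1 than in siNT (3.48 ± 0.30, adjusted p = 4.03e-08) and Mock (1.57 ± 0.27, adjusted p = 0.000139), and lower in siNT than in Mock (-1.91 ± 0.29, adjusted p = 2.96e-05). Its response was larger in siELMO1 than in siNT by 2.89 ± 0.47, adjusted p = 0.000112, not called different from that in Mock (1.03 ± 0.45, adjusted p = 0.0996), and smaller in siNT than in Mock (-1.86 ± 0.47, adjusted p = 0.00539). Per base, MT-TF relative to MT-RNR1, the gene that follows it without a gap, was 0.0286 ± 0.00842 in Mock, 0.0208 ± 0.00406 in siNT and 0.0410 ± 0.0118 in siELMO1 at 0 h. At 24 h it was 0.175 ± 0.0434, 0.0565 ± 0.0204 and 0.387 ± 0.0173. MT-TF thus went up by more than the rRNA next to it in each kind of cell.

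Calls among the 18 tested tRNA genes went both ways. At 0 h, siELMO1 against siNT had 3 higher and 1 lower, beside 31.3% and 31.3% of all genes (median -0.09, -1.69 to 1.68). MT-TV, MT-TP (1.39 ± 0.21, adjusted p = 1.67e-05) and MT-TL1 rose, and MT-TG (glycine) fell (-0.58 ± 0.17, adjusted p = 0.00745). Against Mock 5 of the 18 rose and none fell, beside 27.9% and 22.4% of all genes, a share of rises near that of all genes (median 0.48), with MT-TP (2.03 ± 0.22, adjusted p = 4.43e-07), MT-TC (1.45 ± 0.35, adjusted p = 0.00205) and MT-TL1 (1.31 ± 0.26, adjusted p = 0.000369) the largest. Between siNT and Mock MT-TP alone rose (0.64 ± 0.21, adjusted p = 0.0193), beside 27.6% of all genes called higher and 24.0% lower. MT-TP, which lies on the minus strand at the end of the gene-bearing part of the genome, stood at 3.46, 3.60 and 3.36 CPM in Mock, 5.16, 6.17 and 4.87 in siNT and 8.63, 17.8 and 16.2 in siELMO1, with all siELMO1 libraries above all controls. MT-TL1 stood at 4.60, 5.50 and 4.11 CPM in Mock, 4.80, 5.61 and 4.87 in siNT and 5.57, 15.8 and 14.1 in siELMO1 and MT-TV at 0.856, 1.31 and 0.908 CPM in Mock, 0.598, 0.740 and 0.734 in siNT and 1.35, 3.16 and 2.20 in siELMO1. In MT-TV all siELMO1 libraries were above the controls, and in MT-TL1 replicate 1 lay within siNT. Without siELMO1 replicate 2, the median against Mock was -0.03 and 2 tRNA genes were called lower, and 6 were called lower against siNT (2 without siELMO1 replicate 3 or siNT replicate 3). The call of MT-TP between siNT and Mock was absent without Mock replicate 3 or siNT replicate 2, and 3 tRNA genes rose without siNT replicate 3.

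At 24 h, siELMO1 against siNT had 2 tRNA genes higher, MT-TF and MT-TV (1.06 ± 0.25, adjusted p = 0.00197), and 6 lower, beside 26.0% and 26.5% of all genes (median -0.44), the largest being MT-TS2 (serine, -2.72 ± 0.88, adjusted p = 0.0147) and MT-TL2 (leucine, -2.24 ± 0.79, adjusted p = 0.0245), which lie side by side between MT-ND4 and MT-ND5. The 6 became 3 without siNT replicate 1, 1 without siNT replicate 2 and 2 without siELMO1 replicate 1 or 3. Against Mock 3 of the 18 were higher and 3 lower (median -0.10), beside 21.6% and 22.0% of all genes. MT-TS2 (-2.52 ± 0.88, adjusted p = 0.0267) and MT-TL2 (-2.11 ± 0.79, adjusted p = 0.0386) were again among the lower. The 3 lower calls were all lost without Mock replicate 2 or 3 or any 1 siELMO1 library. Between siNT and Mock, MT-TF was lower and MT-TP (0.94 ± 0.21, adjusted p = 0.00131) and MT-TG (0.42 ± 0.17, adjusted p = 0.0485) were higher (median 0.41), beside 24.9% of all genes called lower and 25.2% higher. Same-numbered libraries of these conditions deviated weakly alike (r of 0.154, 0.230 and 0.342), although the labels state no pairing. With the replicate number as a block MT-TG was not called and 1 tRNA gene was higher, as was also the case without any 1 of the 6 libraries.

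In response to poly(I:C), 7 of 18 tRNA genes rose in Mock and none fell, beside 30.7% and 29.6% of all genes (median 0.43), with MT-TC (1.12 ± 0.35, adjusted p = 0.00953) and MT-TN (asparagine, 1.01 ± 0.37, adjusted p = 0.0246) next to MT-TF in size. In siNT 8 rose and none fell, beside 28.6% and 25.2% of all genes (median 0.54), next to MT-TF MT-TC (1.14 ± 0.34, adjusted p = 0.00876) and MT-TV (1.01 ± 0.26, adjusted p = 0.00381). In siELMO1, MT-TF and MT-TG (0.63 ± 0.17, adjusted p = 0.00486) rose, and MT-TE (glutamate, -1.83 ± 0.61, adjusted p = 0.0174), MT-TW (tryptophan, -0.76 ± 0.31, adjusted p = 0.0473) and MT-TP (-0.63 ± 0.21, adjusted p = 0.0156) fell (median -0.31), beside 28.0% of all genes called higher and 26.9% lower. MT-TW reached the filter's 1 CPM only in siELMO1 0 h replicate 2 (41 counts), a library of the group it fell from. Without that library MT-TW was not tested, so its fall is no support for a change. MT-TC, the tRNA gene with the highest level per kilobase, stood at 9.80, 7.17 and 9.90 CPM in Mock, 13.8, 15.3 and 14.1 in siNT and 22.8, 39.6 and 11.2 in siELMO1 before poly(I:C) and 11.8, 22.9 and 23.7 CPM in Mock, 29.8, 40.2 and 25.3 in siNT and 27.2, 34.0 and 18.8 in siELMO1 after it, with wide spread in siELMO1 at both times. MT-TP responded lower in siELMO1 than in siNT (-1.52 ± 0.29, adjusted p = 0.000621) and than in Mock (-1.22 ± 0.30, adjusted p = 0.00526), MT-TP having stood at 4.93, 5.52 and 5.22 CPM in Mock, 9.40, 12.0 and 8.60 in siNT and 9.83, 10.5 and 7.08 in siELMO1 at 24 h. The median tRNA difference in response was -0.74 against siNT, -0.86 against Mock and -0.04 between the controls.

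These tRNA counts depended on single libraries. The 7 in Mock became 3 without Mock 0 h replicate 2 and 4 without Mock 0 h replicate 3 or Mock 24 h replicate 3. The 8 in siNT became 5 without siNT 0 h replicate 1 or siNT 24 h replicate 3 and 4 without siNT 0 h replicate 3. The median in siELMO1 turned to 0.31 without siELMO1 0 h replicate 2, and its 3 falls became 0 without that library or siELMO1 24 h replicate 3 and 1 without siELMO1 0 h replicate 3 or siELMO1 24 h replicate 1. Without siELMO1 0 h replicate 2 the median differences were -0.21 against siNT and -0.13 against Mock, and without replicate 3 that against siNT was -1.12. The number of tRNA genes with a lower response against siNT was 3 without siELMO1 0 h replicate 1 and 2 without replicate 3, that against Mock 2 without either, and 1 gene responded higher against Mock without Mock 24 h replicate 3.

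A group of 7 tRNA genes, MT-TQ, MT-TA, MT-TY, MT-TS1, MT-TS2, MT-TL2 and MT-TE, varied by more than 5 times in CPM between libraries of 1 condition. MT-TS1 stood at 12.7, 0.541 and 11.3 CPM in Mock, 16.9, 1.07 and 1.06 in siNT and 0.966, 12.1 and 0.859 in siELMO1 before poly(I:C) and at 0.552, 14.7 and 9.42 CPM in Mock, 1.47, 6.34 and 0.945 in siNT and 1.00, 0.964 and 0.760 in siELMO1 after it. MT-TA stood at 8.47, 2.35 and 8.49 CPM in Mock, 12.9, 15.2 and 12.9 in siNT and 19.1, 22.2 and 1.74 in siELMO1 before and 1.49, 16.8 and 18.9 CPM in Mock, 25.6, 30.4 and 15.2 in siNT and 8.93, 14.3 and 2.36 in siELMO1 after. Both genes fell into high and low libraries within conditions, with a highest CPM up to 26.6 times the lowest for MT-TS1 and 12.8 times for MT-TA. In 4 of 6 conditions, the library with the smallest sum of nuclear RNAs without poly(A) was highest in at least 4 of the 7 genes, and in 4 of 6 the library with the largest sum was lowest in at least 4. The 15 nuclear RNAs summed to 33.8, 125 and 30.7 CPM in Mock, 66.1, 146 and 126 in siNT and 109, 28.1 and 46.5 in siELMO1 at 0 h, and 212, 71.5 and 93.4, 162, 121 and 176 and 139, 107 and 189 CPM at 24 h. Since the largest sums came mostly from RN7SL1 and RN7SL2, they do not stand for RNAs without poly(A) in general. The part of poly(A) selection in the tRNA differences was not tested, and the lower MT-TS2, MT-TL2 and MT-TE above come from this group.

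The 4 tRNA genes below the filter had few counts throughout, MT-TQ 0 to 52, MT-TM 13 to 46, MT-TD 11 to 31 and MT-TK 16 to 43 per library. The smallest spread within conditions was that of MT-TG (74 to 202 counts), MT-TR (arginine, 57 to 149) and MT-TW (19 to 48), with a highest CPM at most 1.35, 1.56 and 1.72 times the lowest.

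**Figure D5:**
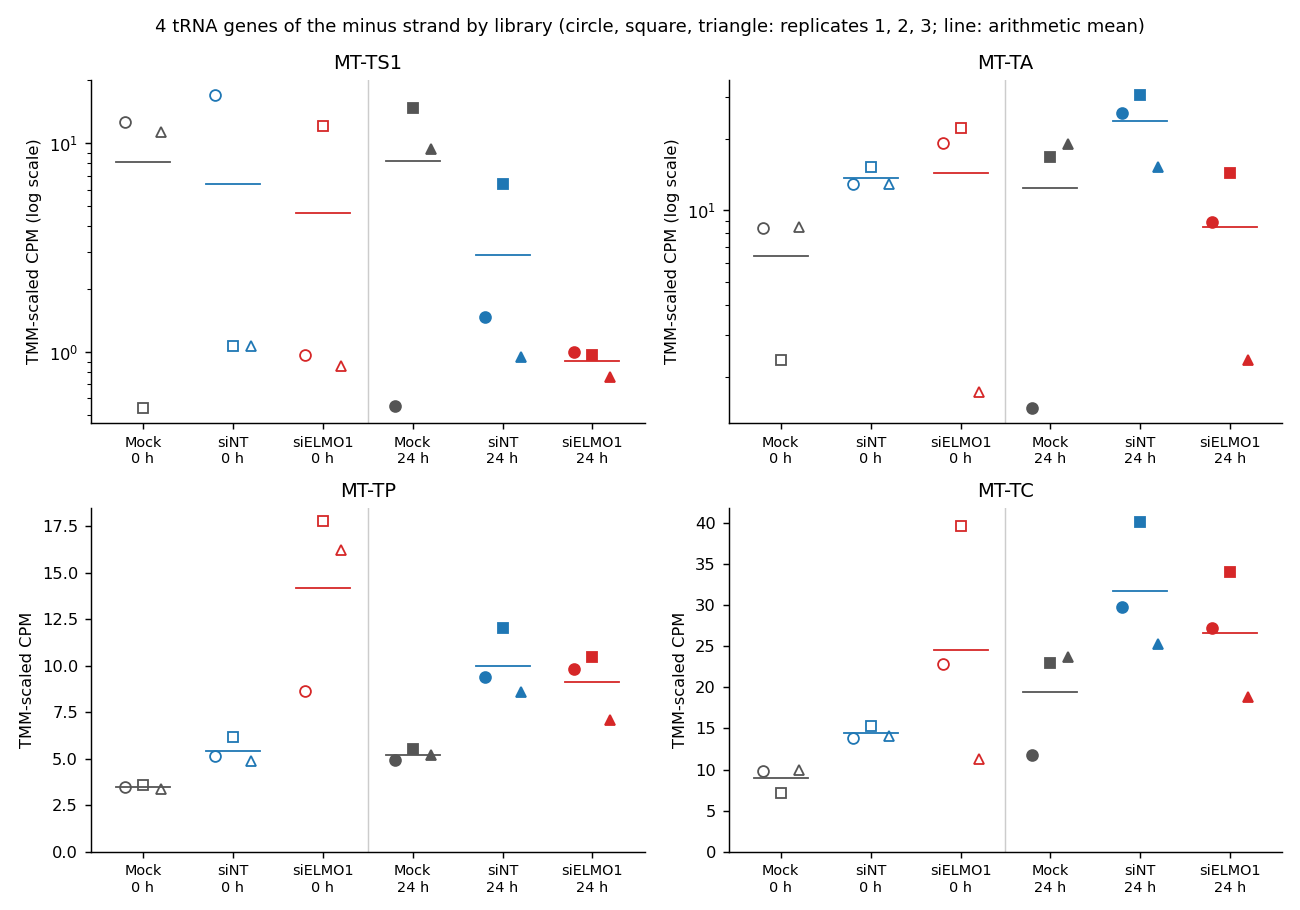
Levels (CPM) of MT-TS1 and MT-TA (log axes) and of MT-TP and MT-TC (linear axes) in every library of the 6 conditions, with circle, square and triangle for replicates 1, 2 and 3 and a line at the mean. MT-TS1 and MT-TA split into high and low libraries within a condition, up to 26.6 and 12.8 times apart in CPM, while MT-TP does not (2.06 times at most).

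The nuclear genes whose products make and handle mitochondrial RNA are given by list, and their counts are to be read beside the share of all genes called, which was 31.3% in each direction against siNT at 0 h. Against Mock at 0 h it was 27.9% higher and 22.4% lower. For the responses, the shares higher and lower were 30.7 and 29.6% in Mock, 28.6 and 25.2% in siNT and 28.0 and 26.9% in siELMO1. In every list below, a count near these shares says nothing particular of the list. Of 8 genes of mitochondrial transcription, siELMO1 against siNT had 0 higher and 4 lower (median -0.20). Against Mock there were 1 higher and 3 lower (median 0.02). TFAM, which packs mitochondrial DNA and opens its promoters, fell (-0.84 ± 0.06, adjusted p = 3.14e-09 against siNT and -0.38 ± 0.06, adjusted p = 9.30e-05 against Mock), as did MTERF3, a repressor of transcription (-0.65 ± 0.06, adjusted p = 6.41e-08 and -0.51 ± 0.06, adjusted p = 2.47e-06). POLRMT, the RNA polymerase of mitochondria, was not called (-0.02 ± 0.07, adjusted p = 0.824 and 0.02 ± 0.07, adjusted p = 0.831). Under poly(I:C) TFAM fell in Mock (-0.34, adjusted p = 0.000203) and siNT (-0.39, adjusted p = 5.91e-05) and was not called in siELMO1 (0.08, adjusted p = 0.314). POLRMT rose in siNT (0.26, adjusted p = 0.00317) and siELMO1 (0.21, adjusted p = 0.0121). By list, the responses were 1 higher and 2 lower (median -0.00) in Mock, 1 higher and 3 lower (median -0.13) in siNT and 3 higher and 0 lower (median 0.09) in siELMO1.

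Among 18 genes of RNA processing and modification, siELMO1 against siNT at 0 h had 1 higher and 11 lower (median -0.28) and against Mock 2 higher and 7 lower (median -0.08). TRMU, which modifies tRNAs, fell (-0.90 ± 0.06, adjusted p = 1.24e-09 against siNT and -0.51 ± 0.06, adjusted p = 3.34e-06 against Mock), as did MTO1, another tRNA-modifying enzyme (-0.35 ± 0.09, adjusted p = 0.00156 and -0.38 ± 0.09, adjusted p = 0.00132). Under poly(I:C) NSUN4, which methylates 12S rRNA and acts in ribosome assembly, rose in Mock (0.68 ± 0.07, adjusted p = 1.14e-07), where MTO1 fell (-0.68 ± 0.09, adjusted p = 2.47e-06). The list's responses were 6 higher and 2 lower (median -0.00) in Mock, 3 higher and 8 lower (median -0.15) in siNT and 5 higher and 2 lower (median 0.09) in siELMO1.

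Among 10 genes of messenger RNA stability and polyadenylation there were 1 higher and 5 lower (median -0.27) against siNT and 1 higher and 4 lower (median 0.02) against Mock. LRPPRC, which with SLIRP stabilises mitochondrial messenger RNAs, was slightly higher against siNT (0.19 ± 0.06, adjusted p = 0.00627) and not called against Mock (0.11 ± 0.06, adjusted p = 0.125). FASTKD3 (-0.61 ± 0.06, adjusted p = 2.26e-07) and TBRG4 (-0.58 ± 0.09, adjusted p = 1.43e-05), both of the FASTK family of mitochondrial RNA-binding proteins, fell against siNT, as did FASTKD1 (-0.48 ± 0.12, adjusted p = 0.00212). LRPPRC fell under poly(I:C) in Mock (-0.34 ± 0.06, adjusted p = 3.61e-05), siNT (-0.17 ± 0.06, adjusted p = 0.0157) and siELMO1 (-0.20 ± 0.06, adjusted p = 0.00567). The list's responses were 2 higher and 3 lower (median -0.04) in Mock, 0 higher and 3 lower (median -0.08) in siNT and 1 higher and 2 lower (median -0.04) in siELMO1.

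The largest response in these nuclear lists was that of PNPT1, polynucleotide phosphorylase, which with the helicase SUPV3L1 degrades mitochondrial RNA and is induced by interferon. It rose in Mock (2.29 ± 0.06, adjusted p = 1.94e-15), siNT (1.92 ± 0.06, adjusted p = 4.20e-14) and siELMO1 (2.36 ± 0.06, adjusted p = 1.96e-15), and at 0 h differed by -0.28 ± 0.06, adjusted p = 0.000609 between siELMO1 and siNT. The response of PNPT1 in siELMO1 differed from that in siNT by 0.45 ± 0.09, adjusted p = 0.000553 and from that in Mock by 0.07 ± 0.09, adjusted p = 0.588. PNPT1 thus rose in all 3 kinds of cells, and a link of PNPT1 to the levels of mitochondrial messenger RNAs was not tested. SUPV3L1 responded by 0.35 in Mock, -0.06 in siNT and -0.07 in siELMO1 (adjusted p = 0.000300, 0.490 and 0.401), and REXO2, which degrades short RNA fragments, by -0.27, -0.40 and -0.39 (adjusted p = 0.000143, 3.19e-06 and 3.88e-06). Over the 4 genes of the list, siELMO1 had 0 higher and 2 lower (median -0.18) against siNT at 0 h and 2 higher and 0 lower (median 0.08) against Mock. The list's responses were 2 higher and 2 lower (median 0.04) in Mock, 1 higher and 2 lower (median -0.16) in siNT and 1 higher and 2 lower (median -0.12) in siELMO1.

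Of 14 genes of mitochondrial DNA replication and nucleotide supply, siELMO1 at 0 h had 2 higher and 10 lower (median -0.29) against siNT and 1 higher and 7 lower (median -0.17) against Mock. TOP1MT, the mitochondrial topoisomerase, rose (1.79 ± 0.08, adjusted p = 2.08e-12 and 0.45 ± 0.08, adjusted p = 8.57e-05), while DNA2, a nuclease and helicase also of the nucleus, fell (-1.77 ± 0.08, adjusted p = 3.93e-12 and -1.61 ± 0.08, adjusted p = 2.23e-11), as did MGME1, a nuclease of mitochondrial DNA (-1.26 ± 0.06, adjusted p = 2.85e-12 and -0.65 ± 0.06, adjusted p = 3.26e-08). Of 8 regulators of mitochondrial biogenesis 7 were tested, with 2 higher and 2 lower (median -0.05) against siNT and 1 higher and 1 lower (median -0.06) against Mock. NRF1, a transcription factor of nuclear genes for mitochondria, fell (-0.68 ± 0.08, adjusted p = 6.61e-07 and -0.57 ± 0.08, adjusted p = 8.47e-06). The largest change of this list against siNT was that of PPARGC1B (-1.02), which stood at 8.93, 9.71 and 7.84 CPM in Mock, 17.9, 16.3 and 16.7 in siNT and 7.40, 9.54 and 8.27 in siELMO1. PPARGC1A did not pass the filter. The responses of the replication list were 3 higher and 5 lower (median -0.02) in Mock, 5 higher and 5 lower (median -0.08) in siNT and 6 higher and 4 lower (median 0.07) in siELMO1, and those of the regulators 2 higher and 3 lower (median -0.11), 1 higher and 4 lower (median -0.25) and 2 higher and 3 lower (median -0.01).

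Copies of mitochondrial genes in the nuclear genome can share reads with them. The matrix held 404 genes named as such copies, of which 12 passed the filter. MTND2P28 had a mean of 11146 counts, 14.6% of those of MT-ND2, MTCO1P12 10869, 5.84% of those of MT-CO1, and MTATP6P1 8886, 12.2% of those of MT-ATP6. Levels of MT-ND2, MT-CO1 and MT-ATP6 are uncertain by such shares, since the counting may have split reads between near-identical copies. For every other protein-coding gene the copies summed to less than 1% of its mean count. Summing each gene with its copies changed 0 of 160 calls.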

How the data were processed

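RNA of 18 EA.hy926 libraries was sequenced, with 3 libraries in each of 6 conditions. Per the study's methods and the submitters' processing notes, the authors aligned reads to GRCh38 with STAR, annotated them with GENCODE, quantified genes with StringTie, and deposited a matrix of estimated counts per gene made by the StringTie script prepDE, which multiplies coverage by length and divides by a read length. The deposited estimated counts are whole numbers, not normalized and not whole reads, and were used as they are. Per the study's methods, reads were paired-end and longer than any tRNA gene, while the read length passed to prepDE and the strand setting of the counting are not given in the sources used here. The deposited matrix per transcript was not used, and the random effect of the authors' dream step was not repeated.

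The study's filter (100 counts or more in all, and 1 CPM or more in the highest library) kept 15167 of 62754 genes. One model of edgeR 4.0.16 (R 4.3.3) with TMM factors was fitted to all 18 libraries (biological coefficient of variation 12.2%), and 12 comparisons were tested two-sided with the quasi-likelihood test and Benjamini-Hochberg adjustment over all genes tested. A gene was called at an adjusted p under 0.05. The SE is the log2 fold change divided by the square root of the F statistic. Levels are TMM-scaled CPM, and levels per kilobase divide them by annotated gene length. The scripts were tested on simulated data. Library totals of 40.4 to 73.9 M give a CPM of 0.0406 to 0.0743 for 3 counts. No 2 libraries had equal counts in more than 1.44% of tested genes.

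The members and the gene lists were chosen with earlier results of these data known. Named were all protein-coding and rRNA genes, tRNA genes by the highest level or, in a comparison, the 3 with the largest change among those called, of each nuclear list some of those with a large change in a comparison plus POLRMT, TFAM, LRPPRC and PNPT1, and the 3 nuclear copies with the highest counts. Some other members called in a count are named and others are not, and ratios and single tRNA genes of wide spread were chosen after their values were seen. Deviations of same-numbered libraries from their group means had an r over 0.1 across 9990 genes for all 3 pairs in 1 of 15 pairs of conditions, Mock and siNT at 24 h (0.154, 0.230 and 0.342), and the value with a replicate block is given there where it changes a call. The labels state no pairing, and libraries with different numbers were not compared in this check, so that a pairing is not established. Alternatives were DESeq2 1.42.0, voom of limma 3.58.1, other scalings and filters, a replicate block, summed nuclear copies, the compared libraries alone and each library left out.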

Additional observations from a re-analysis of the deposited data

Results flagged for a closer look

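The responses to poly(I:C) differed between the kinds of cells by the interaction term of the edgeR model. Between siELMO1 and siNT, 13 protein-coding genes, 1 rRNA gene and 2 tRNA genes were called, with MT-TF at 2.893, MT-ND4L at -1.9338 and MT-ND4 at -1.8382 (difference of log2 fold changes) the largest. Between siELMO1 and Mock the numbers were 13, 1 and 1, with MT-ATP6 at -1.9129, MT-ND4L at -1.7547 and MT-ND4 at -1.7146. Between siNT and Mock no protein-coding gene was called at an adjusted p under 0.05, 2 rRNA genes were (MT-RNR1 at -0.6630 and MT-RNR2 at -0.5647), and 1 tRNA gene, MT-TF at -1.8645. Every comparison of responses with siELMO1 uses the siELMO1 libraries of 0 h, of which replicate 1 stands apart. This library was set apart by comparison of its values alone, after they were seen, and its deviation was not tested.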

How the results depend on the processing

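The direction of the protein-coding medians was the same under all alternatives in 11 of 12 comparisons, the exception being the response of siNT against Mock, whose values lay near 0 on both sides, and that of MT-RNR1, MT-RNR2 and ELMO1 was the same in each comparison where they were called in the fit reported. MT-RNR2 in the response of siELMO1, not called at 0.03, was called lower without siELMO1 0 h replicate 1 (-0.2088). Calls of single genes were the same in 1588 values, lost in 66 and gained in 6 under the other settings, and the same in 1024, lost in 179 and gained in 8 when 1 library was left out, MT-RNR1 and MT-RNR2 being followed also where they were not called. The gains were MT-RNR1 in the response of siELMO1 against Mock with library totals (0.493), upper-quartile factors (0.4436), scaling by nuclear genes (0.4556) and no filter (0.4766), and MT-RNR1 (-0.2599) and MT-RNR2 (-0.1309) for siNT against Mock at 24 h in a fit of the compared libraries alone. In a fit of the compared libraries alone, the number of protein-coding genes called higher was 5 for siELMO1 against siNT at 0 h, 13 for siNT against Mock at 0 h, 1 for siELMO1 against Mock at 24 h, 12 for siNT against Mock at 24 h, 6 (with 3 lower) for the response in Mock and 5 (with 2 lower) in siNT, and the number of tRNA genes was 6 higher for siNT against Mock at 0 h, 4 higher at 24 h and 0 lower for the response in siELMO1. Such a fit has fewer samples to estimate the spread. Without a filter on low counts, 3 protein-coding genes were higher for siNT against Mock at 0 h, 1 tRNA gene was lower for siELMO1 against Mock at 24 h, 1 was higher for siNT against Mock at 24 h and 5 rose in siNT. With limma-voom, 0 tRNA genes were lower for siELMO1 against Mock at 24 h, for the response in siELMO1 and for the response of siNT against Mock. For siNT against Mock at 24 h, 1 tRNA gene was higher with scaling by nuclear genes, DESeq2, filterByExpr and the replicate block, with which 1 tRNA gene also had a higher response in siELMO1 than in Mock. The replicate block changed no other count of calls by over 1.5 times. When libraries were scaled by totals alone, the median of the protein-coding genes in Mock was 0.0078 and 1 of them was called higher, and replicate 1 of siELMO1 at 0 h stood at 0.4103 of replicates 2 and 3. MT-RNR2 was not called in the response of siNT against Mock with library totals (-0.4804), upper-quartile factors (-0.5395), scaling by nuclear genes (-0.5397), limma-voom (-0.5609), no filter (-0.5545) or filterByExpr (-0.5621). Where no construction of the setting shows it, the cause was not tested.

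When 1 library was left out, the ranges were as follows for the results that changed. Protein-coding genes called higher ranged from 5 to 13 for siELMO1 against siNT at 0 h, 0 to 6 for siNT against Mock at 0 h, 2 to 5 for siNT against Mock at 24 h, 1 to 2 for the response in Mock and 0 to 1 in siNT, and those called lower from 0 to 4 for siELMO1 against Mock at 24 h. tRNA genes called lower ranged from 1 to 6 for siELMO1 against siNT and 0 to 2 against Mock at 0 h, from 1 to 5 and 0 to 4 at 24 h, from 0 to 3 for the response in siELMO1, and from 1 to 3 against siNT and 1 to 2 against Mock for its difference. tRNA genes called higher ranged from 0 to 3 for siNT against Mock at 0 h, stayed at 1 at 24 h, and ranged from 3 to 7 for the response in Mock, 4 to 7 in siNT and 0 to 1 for the difference of siELMO1 and Mock. The tRNA median ranged from -0.0269 to 0.701 for siELMO1 against Mock at 0 h and from -0.4123 to 0.3082 for the response in siELMO1, both turning sign without siELMO1 0 h replicate 2, and from -1.1206 to -0.2094 against siNT and -1.1179 to -0.1345 against Mock for its difference. MT-RNR2 ranged from -0.6089 to -0.4812 for the response of siNT against Mock, 0.3506 to 0.478 for siNT against Mock at 0 h and 0.4012 to 0.528 for the response in siNT. For the results not called, MT-RNR1 ranged from 0.3207 to 0.5467 for the response of siELMO1 against Mock and from -0.3483 to -0.144 for siNT against Mock at 24 h, and MT-RNR2 from -0.654 to -0.2424 for the response of siELMO1 against siNT, from -0.2088 to 0.2023 for that in siELMO1 and from -0.1571 to -0.117 for siNT against Mock at 24 h. MT-RNR1 ranged from 0.302 to 0.4772 for siNT against Mock and from -0.4467 to -0.2926 for siELMO1 against siNT at 0 h. The tRNA genes had 0 (MT-TQ) to 2248 (MT-TC) counts in a library, while each protein-coding or rRNA gene had at least 8096 in every library. A wide spread was not confined to tRNA genes of low counts. MT-TA, of wide spread, had 78 to 1700 counts per library, and MT-TW, among the steadiest, 19 to 48.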
